A study of Mus musculus with 4 samples.

Results

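Histones are the proteins around which nuclear DNA is wrapped, and the genes described here are those that carry the symbols of the replication-dependent histone clusters. They were chosen by symbol (Hist1 to Hist4 genes, the H1f series and the H2A, H2B and H3 variants whose symbols share that form) and by a minimum of 10 reads summed over the 4 libraries. The symbol rule matched 75 of the 48526 genes counted, and 64 of them had 10 or more reads: 7 linker H1 genes, 19 H2A, 14 H2B, 11 H3 and 13 H4 genes. Among the matches left out, 7 had no read, and those nearest the limit were Hist1h2br with 6 reads and Hist2h2bb with 5. Hist1h2bq, with 10 reads, and Hist1h1t, with 14, lay just inside it. The rule also took in genes that are not active replication-dependent cluster genes of somatic cells, among them H1f0 and H2afy2, which code for replacement variants, the variant gene H2al3, the testis H1 gene Hist1h1t, and Hist3h2bb-ps and Hist1h2aj, which GENCODE M21 annotates as pseudogenes. The widely used replacement genes H2afz, H2afv, H2afx, H3f3a and H3f3b do not match it and are given with the replacement histones.

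The libraries came from liver tumours of C57BL/6 mice. The AKK group (2 libraries) received Akkermansia muciniphila, a mucin-degrading gut bacterium, by mouth at 5000000000 colony-forming units, and the PBS group (2 libraries) received phosphate-buffered saline. In both groups feeding began 2 weeks before a methionine- and choline-deficient (MCD) diet of 2 weeks, which induces fatty liver, and went on during it. All mice then had luciferase-labelled RIL-175 cells, a mouse hepatocellular carcinoma line, implanted in the liver; feeding stopped for 6 days after surgery and then resumed to the end. All tumours therefore derive from 1 injected cell line growing in a host that keeps its own liver and immune cells, and no group without the diet or without tumour cells was analysed here. The labels call the libraries of a group biological replicates but do not say whether each is 1 animal. The deposited names of the libraries follow one pattern in AKK and another in PBS, so that a cohort, if the names mark one, and the feeding cannot be told apart.

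Replication-dependent histone genes are short, mostly without introns, and are transcribed in bulk while DNA is copied, in S phase. Their mRNAs are unusual in that they end in a conserved stem-loop, bound by the protein SLBP, in place of a poly(A) tail, and they are degraded when DNA synthesis stops. Some of the same genes also yield longer, polyadenylated mRNAs that run past the stem-loop, chiefly in cells that have left the cell cycle. The labels do not say how RNA was selected for sequencing, and which of these mRNA forms the counts represent is not known.

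The stem-loop is shown here because it sets these transcripts apart from other mRNAs. Letters of the form GGNNCTTTTNAGNGCC (sense strand, N for any base) occurred in the annotated GENCODE M21 transcripts of 38 of the 64 histone genes (59.4%), against 52 of all 55450 genes (0.0938%). In the 26-base sites below, written 5′ to 3′ as DNA, capitals mark the stem-loop. The first 4 sites belong to genes with low AKK values, and the others show the variants of the loop and stem. Hist1h3c, Hist2h2ac and Hist1h4h also lay lower in both AKK libraries. The stem-loop letters of the first 4 sites also occur in genes whose groups overlapped, such as Hist1h1c and Hist3h2a.
Hist1h1d: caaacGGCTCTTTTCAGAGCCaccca
Hist1h1e: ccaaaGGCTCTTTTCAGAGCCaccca
Hist1h2bj: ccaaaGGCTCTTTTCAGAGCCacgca
Hist1h3a: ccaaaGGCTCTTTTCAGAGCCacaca
Hist1h3c: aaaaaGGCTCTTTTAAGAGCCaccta
Hist2h2ac: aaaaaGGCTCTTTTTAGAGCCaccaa
Hist1h4h: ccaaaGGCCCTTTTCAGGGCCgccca
Hist1h4i: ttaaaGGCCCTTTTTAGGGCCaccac
All 9 H4 sites had the stem arms GGCCC and GGGCC, and all 29 sites of the other classes had GGCTC and GAGCC. The annotated transcript went on for 23 bases after the stem-loop in Hist1h2bj and 37 in Hist1h3a, but for 330 in Hist1h4i, 1153 in Hist1h1e and 4884 in Hist1h1d. No match in the remaining 26 genes says only that the annotated transcript does not hold these letters.

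Each library had between 48912489 and 59027227 own-strand reads on genes, which were 95.4% to 96.2% of the sum of the own-strand and other-strand counts, and levels are given as CPM, own-strand counts scaled to the size of the library after TMM normalisation. The histone genes took 58924 and 41819 reads in AKK 1 and AKK 2, against 43057 and 39000 in PBS 1 and PBS 2. These were 0.106% and 0.0709% of the reads on genes in AKK, against 0.0820% and 0.0797% in PBS, so the summed level of the groups overlapped. A count of 3 reads, the limit that a count of 0 allows, corresponded to 0.0531 and 0.0513 CPM in AKK and to 0.0562 and 0.0630 CPM in PBS; intervals and limits of this kind cover counting error only. In bulk tumour RNA, fewer cells of a type and less RNA per cell cannot be told apart.

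Across the 64 genes, both AKK libraries lay below both PBS libraries in 32 (50%) and above both in 2, Hist1h2bc and Hist2h2be, while 30 overlapped. Over all 21127 genes with 10 or more reads the shares were 24.3% below and 25.7% above. The median log2 ratio of the AKK mean over the PBS mean was -0.64 for the histone genes and 0.02 for all these genes, and 47 histone genes had a negative ratio. The minimum expression filter kept 55 of the 64 for testing, and their median log2 fold change was -0.65, against 0.02 for all 17479 genes tested. The other 9 had 10 to 44 reads in all. In edgeR's quasi-likelihood test, with Benjamini-Hochberg adjustment over all genes tested, none of the 55 passed an adjusted p of 0.05, where 0.00572% of all genes (1 gene) did in either direction and 0% in the lower direction. At an unadjusted p under 0.05, 15 of the 55 (27.3%) were lower in AKK and 0 were higher, against 8.62% and 6.7% of all genes. A log2 fold change of -1 or less was found in 17 of the 55 (30.9%), against 8.32% of all genes. The filter asks for a minimum level in 2 libraries. Hist1h3a, Hist1h2af and Hist1h2bp, which are among the 15 and the 17, reached that level in the PBS libraries only. They were thus kept through the group in which they were high, and these counts lean on the filter in part. DESeq2 made more false calls than edgeR on simulated data and also recovered more of the changed genes. It called 7 of the 55 (12.7%) lower and 0 higher, against 2.98% and 2.04% of all genes, and limma-voom called none. With 2 libraries a group, an exact permutation test of a single gene cannot give a p below 0.333.

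**Figure D1:**
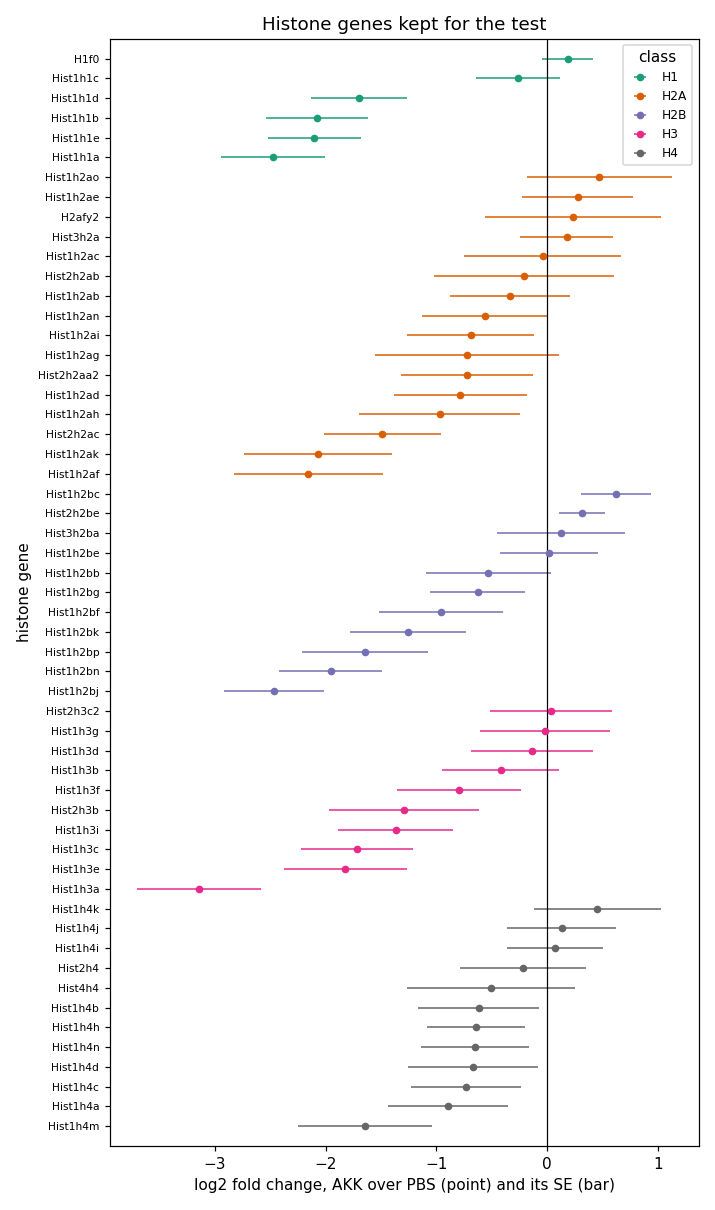
log2 fold change of AKK over PBS (points, horizontal axis) with its standard error (bars) from edgeR for the 55 histone genes kept for testing, grouped by class and ordered by value within a class. The 7 genes that DESeq2 called lie between -3.14 and -1.70, and 42 of the 55 points lie left of 0.

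The AKK libraries differed from each other in these genes, and the counts moved when either was left out. The level in AKK 1 exceeded that in AKK 2 in 53 of 64 histone genes (82.8%), with a median log2 difference of 0.48, against 53.8% and 0.04 for all genes. It did so in all 13 H4 genes, with a median log2 difference of 0.76. Of the 64 genes, 36 in AKK 1 and 49 in AKK 2 lay below both PBS libraries, and 21 in AKK 1 and 3 in AKK 2 lay above both. Of all 21127 genes with 10 or more reads, 8129 in AKK 1 and 7491 in AKK 2 lay below both. Above both lay 8892 in AKK 1 and 7681 in AKK 2. Without AKK 1, 48 of the 60 genes then kept lay lower in AKK and 3 higher, where all genes gave 35.3% and 37.1%. Without AKK 2, 36 of 60 lay lower and 18 higher, where all genes gave 39.4% and 42.2%. The higher count was 6 without PBS 1 and 4 without PBS 2, where all genes gave 37.9% and 38.1%. Between the PBS libraries, PBS 2 was above PBS 1 in 41 of 64 genes, with a median log2 difference of 0.15.

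Linker histones of the H1 class bind the DNA that enters and leaves the nucleosome. The cluster genes Hist1h1a (H1f1), Hist1h1b (H1f5), Hist1h1d (H1f3) and Hist1h1e (H1f4) lay lower in both AKK libraries, with the PBS mean at 3.24 to 5.58 times the AKK mean. All 4 lie in the Hist1 cluster on chromosome 13. Hist1h1a (ENSMUSG00000049539.2) was at 0.601 and 0.445 CPM in AKK 1 and AKK 2, against 2.79 and 3.05 CPM in PBS 1 and PBS 2. This rested on 34 and 26 reads in AKK, against 149 and 145 in PBS, and its log2 fold change was -2.48 ± 0.470 (SE; edgeR adjusted p = 0.182, DESeq2 adjusted p = 0.000226). Hist1h1e was at 0.937 and 0.924 CPM in AKK, against 3.73 and 4.29 CPM in PBS, with a log2 fold change of -2.10 ± 0.420 (SE; edgeR adjusted p = 0.182, DESeq2 adjusted p = 0.000179). The AKK pair differed by less than the PBS pair for this gene, and both pairs were far closer within than between. Hist1h1b was at 0.760 and 1.15 CPM in AKK, against 3.67 and 4.39 CPM in PBS, with a log2 fold change of -2.08 ± 0.456 (SE; edgeR adjusted p = 0.191, DESeq2 adjusted p = 0.000954). Hist1h1d was at 3.52 and 1.87 CPM in AKK, against 7.91 and 9.54 CPM in PBS, with a log2 fold change of -1.70 ± 0.432 (SE; edgeR adjusted p = 0.214, DESeq2 adjusted p = 0.00451). DESeq2 called all 4 and edgeR called none of them.

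The most abundant H1 genes did not follow this order. Hist1h1c (H1f2), a cluster gene that supplies much of the H1 of somatic cells, was at 160 and 73.0 CPM in AKK, against 128 and 152 CPM in PBS. Its groups overlapped, with AKK 1 above both PBS libraries and AKK 2 below both, and its log2 fold change was -0.26 ± 0.377 (SE; edgeR adjusted p = 0.755), turning to 0.19 without AKK 2 and to -0.93 without AKK 1. H1f0, the replacement linker histone that accumulates in differentiated cells and is not tied to S phase, was at 558 and 460 CPM in AKK, against 463 and 433 CPM in PBS. Its log2 fold change was 0.18 ± 0.230 (SE; edgeR adjusted p = 0.716). It held 77.6% of all H1 reads, so the summed H1 level, at 724 and 537 CPM in AKK against 609 and 606 CPM in PBS, mostly followed it. Without H1f0 the sums were 166 and 77.4 CPM in AKK, against 146 and 173 CPM in PBS. Without Hist1h1c as well, they were 5.96 and 4.42 CPM in AKK, against 18.2 and 21.3 CPM in PBS, a log2 ratio of -1.93. The testis gene Hist1h1t had 8 and 2 reads in AKK, against 4 and 0 in PBS.

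**Figure D2:**
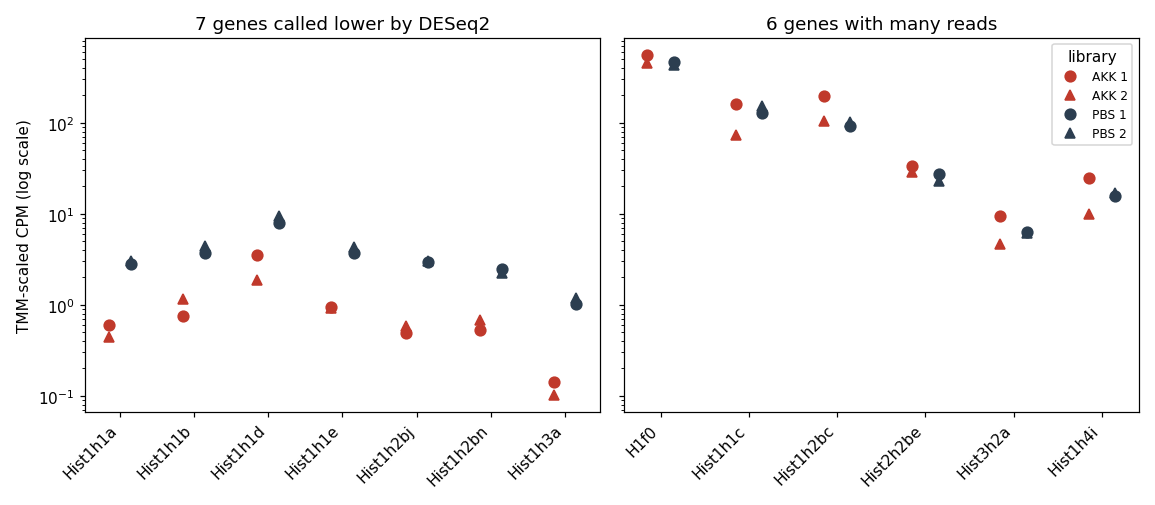
TMM-scaled CPM (log scale) in each library for the 7 histone genes that DESeq2 called (left) and for 6 genes with many reads (right); red marks AKK, dark blue PBS, circles replicate 1 and triangles replicate 2. Within each gene on the left, chosen as called lower, both AKK points are below both PBS points. On the right Hist1h1c, Hist3h2a and Hist1h4i have an AKK point on either side of the PBS points.

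The promoters of the H1 genes are shown because genes of this class differed in their values while lying in the same cluster. Each is the 250 bases before the transcription start from RefSeq (GRCm38.p6), 5′ to 3′ on the gene's strand, and capitals mark matches to 3 motifs. The letters CCAAT are the binding site of the factor NF-Y, the letters TATAAA are the TATA box, and the letters AAACACA are known as the H1 box. Hist1h1a and Hist1h1e had low AKK values, and Hist1h1c did not.
Hist1h1a, chr13:23763418-23763667, plus strand: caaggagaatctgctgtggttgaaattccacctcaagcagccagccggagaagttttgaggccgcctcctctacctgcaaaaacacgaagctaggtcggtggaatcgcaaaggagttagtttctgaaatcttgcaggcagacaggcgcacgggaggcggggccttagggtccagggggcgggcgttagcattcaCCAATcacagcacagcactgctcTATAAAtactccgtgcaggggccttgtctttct
Hist1h1e, chr13:23622559-23622808, minus strand: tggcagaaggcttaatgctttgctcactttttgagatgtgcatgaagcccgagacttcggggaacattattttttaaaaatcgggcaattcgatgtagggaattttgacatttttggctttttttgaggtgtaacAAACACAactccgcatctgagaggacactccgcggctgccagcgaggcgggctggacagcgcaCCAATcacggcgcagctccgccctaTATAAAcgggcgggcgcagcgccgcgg
Hist1h1c, chr13:23738557-23738806, plus strand: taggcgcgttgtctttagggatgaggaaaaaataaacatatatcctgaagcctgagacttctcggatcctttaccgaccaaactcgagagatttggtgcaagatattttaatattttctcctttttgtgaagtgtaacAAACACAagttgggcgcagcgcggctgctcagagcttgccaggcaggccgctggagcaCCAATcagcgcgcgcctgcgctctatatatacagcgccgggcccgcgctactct
With the base just before the start as -1, the CCAAT match began at -56 in Hist1h1a, -52 in Hist1h1e and -54 in Hist1h1c. AAACACA began at -115 in Hist1h1e and -112 in Hist1h1c, and was not in this window of Hist1h1a. TATAAA began at -33 in Hist1h1a and -27 in Hist1h1e. Those exact letters were not in the window of Hist1h1c, which holds the similar letters tatatata. Any part of the motifs in the levels was not tested.

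Promoters of 57 of the 64 histone genes were in the RefSeq table, and the classes differed in the letters they held, searched on both strands. CCAAT was in 44 of the 57 (77.2%), against 33.8% of all 32851 promoters, and in all 11 H2B but only 3 of 12 H4 promoters. TATAAA was in 28 of 57 (49.1%), against 12.4% of all. AAACACA was in 5 of 7 H1 promoters and 1 of 18 H2A promoters, against 6.25% of all. GGTCCG, a hexamer known from H4 promoters, was in 9 of 12 H4 promoters, against 6.72% of all. The octamer ATTTGCAT, a binding site of POU factors such as Oct1, was in 6 of 18 H2A and 3 of 11 H2B promoters and in none of the others, against 1.6% of all. Windows of neighbouring H2A and H2B genes can overlap, so some matches are counted in both classes. The octamers of Hist1h2ae and Hist1h2bg are the same site, as are those of Hist1h2ah and Hist1h2bk. All matches given here are descriptions of sequence.

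H2A pairs with H2B in the nucleosome core. In the H2A class 7 of 19 genes (36.8%) lay lower in both AKK libraries, 12 overlapped and none lay higher in both. Over all genes with 10 or more reads the shares were 24.3% lower and 25.7% higher. An unadjusted p under 0.05 was found for 3 genes of few reads, and neither edgeR nor DESeq2 called any gene of the class. Hist2h2ac, which lies in the Hist2 cluster on chromosome 3, was at 0.212 and 0.274 CPM in AKK, against 0.637 and 0.736 CPM in PBS, with a log2 fold change of -1.49 ± 0.531 (SE; edgeR adjusted p = 0.292). Hist1h2ak had 11 and 7 reads in AKK, against 23 and 43 in PBS, with a log2 fold change of -2.07 ± 0.665 (SE; edgeR adjusted p = 0.265). Hist1h2af had 5 and 3 reads in AKK, against 15 and 17 in PBS (edgeR adjusted p = 0.256). Groups overlapped in the H2A genes with most reads except Hist1h2ad. Hist3h2a, with 40.1% of the class's reads, was at 9.36 and 4.71 CPM in AKK, against 6.24 and 6.22 CPM in PBS, and its log2 fold change of 0.17 ± 0.417 (SE; edgeR adjusted p = 0.858) turned to -0.40 without AKK 1. Hist1h2ac was at 4.69 and 1.13 CPM in AKK, against 2.42 and 3.57 CPM in PBS, with AKK 1 above PBS 1 and PBS 2 and AKK 2 below them. Hist1h2ad was at 1.203 and 0.462 CPM in AKK, against 1.46 and 1.41 CPM in PBS (edgeR adjusted p = 0.546). The highest kept H2A value was that of Hist1h2ao, with a log2 fold change of 0.47 ± 0.653 (SE; edgeR adjusted p = 0.746) from 44 and 17 reads in AKK, against 22 and 17 in PBS. H2A genes were also the hardest to separate from neighbouring genes: 18 of the 21 histone genes that overlap a gene on the other strand are in this class, and counting without regard to strand kept only 64.7% of its reads, against 98.97% to 101.4% in the other classes.

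The H2B class held 2 of the genes that DESeq2 called lower and both genes that lay higher in both AKK libraries. Hist1h2bj was at 0.495 and 0.582 CPM in AKK, against 2.94 and 3.03 CPM in PBS, from 28 and 34 reads in AKK, against 157 and 144 in PBS. Its log2 fold change was -2.46 ± 0.454 (SE; edgeR adjusted p = 0.182, DESeq2 adjusted p = 0.000133), the smallest DESeq2 p among the histone genes. Hist1h2bn was at 0.531 and 0.685 CPM in AKK, against 2.49 and 2.23 CPM in PBS, with a log2 fold change of -1.95 ± 0.465 (SE; edgeR adjusted p = 0.202, DESeq2 adjusted p = 0.0113). Hist1h2bp had 10 reads in each AKK library, against 24 and 31 in PBS (log2 fold change -1.65 ± 0.567 (SE); edgeR adjusted p = 0.286). In total 7 of 14 H2B genes lay lower in both AKK libraries, against 24.3% of all genes with 10 or more reads. Hist1h2bc, the core histone gene with most reads among the 64, was at 195 and 104 CPM in AKK, against 91.2 and 103 CPM in PBS, so that AKK 2 lay just above PBS 2. Its log2 fold change of 0.62 ± 0.319 (SE) did not pass (edgeR adjusted p = 0.402, DESeq2 adjusted p = 0.419). Hist2h2be, an H2B gene studied as a variant of mouse olfactory neurons, was at 33.2 and 29.1 CPM in AKK, against 27.2 and 22.9 CPM in PBS, with a log2 fold change of 0.31 ± 0.206 (SE; edgeR adjusted p = 0.487). Hist1h2be was at 7.78 and 3.71 CPM in AKK, against 5.75 and 5.63 CPM in PBS, with a log2 fold change of 0.01 ± 0.443 (SE; edgeR adjusted p = 0.991). Hist1h2bc alone held 73.8% of the H2B reads, and the class sum was 244 and 142 CPM in AKK, against 138 and 146 CPM in PBS. Without Hist1h2bc and Hist2h2be it was 16.3 and 9.21 CPM in AKK, against 19.1 and 20.0 CPM in PBS.

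H3 and H4 form the tetramer at the centre of the nucleosome, and H3 showed the lowest single value of all histone genes. Hist1h3a was at 0.142 and 0.103 CPM in AKK, against 1.01 and 1.18 CPM in PBS, from 8 and 6 reads in AKK, against 54 and 56 in PBS. Its log2 fold change was -3.14 ± 0.562 (SE; edgeR adjusted p = 0.182, DESeq2 adjusted p = 0.00730), with PBS at 8.96 times the AKK mean. Hist1h3c was at 0.601 and 0.394 CPM in AKK, against 1.72 and 1.56 CPM in PBS, with a log2 fold change of -1.72 ± 0.503 (SE; edgeR adjusted p = 0.246, DESeq2 adjusted p = 0.0924). Hist1h3e, at 0.283 and 0.188 CPM in AKK against 0.731 and 0.946 CPM in PBS, and Hist1h3i, at 0.796 and 0.445 CPM in AKK against 1.63 and 1.58 CPM in PBS, also had an unadjusted p under 0.05 (edgeR adjusted p = 0.251 and 0.308). The groups of these 4 genes did not overlap. In all, 7 of 11 H3 genes lay lower in both AKK libraries, against 24.3% of all genes with 10 or more reads. The mean was lower in AKK in 10 of 11. The H3 genes with most reads overlapped: Hist2h3c2 was at 5.22 and 1.92 CPM in AKK, against 3.41 and 3.57 CPM in PBS (edgeR adjusted p = 0.984). Hist1h3d was at 3.36 and 1.34 CPM in AKK, against 2.66 and 2.501 CPM in PBS, and Hist1h3g at 2.44 and 0.976 CPM in AKK, against 1.41 and 2.06 CPM in PBS. In each of these 3 genes AKK 1 was above both PBS libraries and AKK 2 below both. The H3 sum was 13.9 and 6.97 CPM in AKK, against 14.8 and 15.6 CPM in PBS.

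H4 genes code for the same protein, and 7 of 13 lay lower in both AKK libraries, none higher. Over all genes with 10 or more reads the shares were 24.3% and 25.7%. Hist1h4m was the only one with an unadjusted p under 0.05, at 0.212 and 0.137 CPM in AKK, against 0.431 and 0.673 CPM in PBS (log2 fold change -1.65 ± 0.603 (SE); edgeR adjusted p = 0.297), from 12 and 8 reads in AKK, against 23 and 32 in PBS. Hist1h4i held 56.0% of the H4 reads and was at 24.4 and 10.01 CPM in AKK, against 15.7 and 17.1 CPM in PBS. Its log2 fold change was 0.07 ± 0.429 (SE; edgeR adjusted p = 0.949), turning to -0.71 without AKK 1. Hist1h4j, at 3.48 and 1.75 CPM in AKK against 2.32 and 2.46 CPM in PBS, also had an AKK library on either side of the PBS pair. Hist1h4k had the highest fold change of the class, at 3.15 and 1.83 CPM in AKK, against 1.14 and 2.501 CPM in PBS (log2 fold change 0.45 ± 0.571 (SE); edgeR adjusted p = 0.720). Hist1h4h was at 2.05 and 1.61 CPM in AKK, against 2.34 and 3.38 CPM in PBS, without overlap (edgeR adjusted p = 0.505). The H4 sum was 39.3 and 18.7 CPM in AKK, against 28.5 and 34.0 CPM in PBS.

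**Figure D3:**
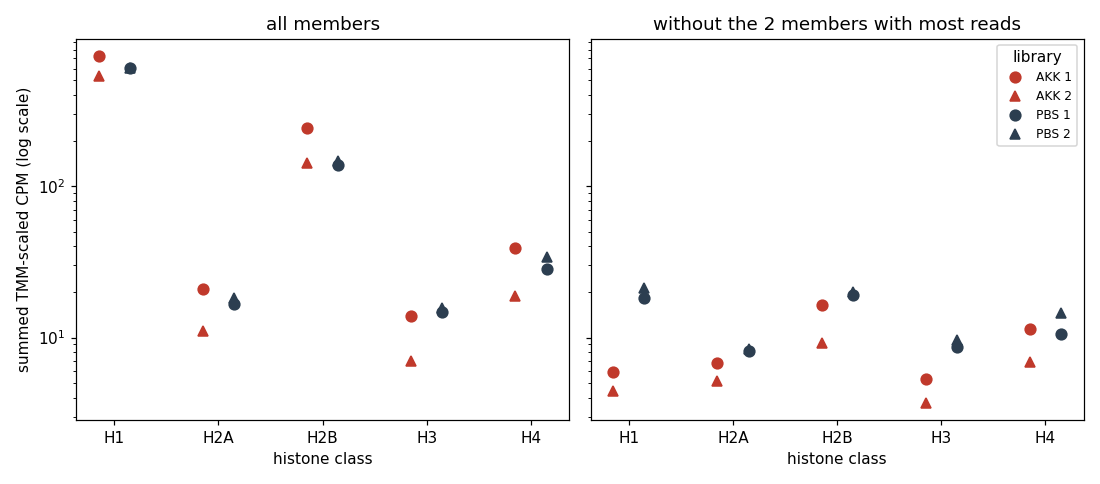
Summed TMM-scaled CPM (log scale) of each histone class in each library, over all members (left) and without the 2 members with most reads of the class (right); red marks AKK, dark blue PBS, circles replicate 1 and triangles replicate 2. On the left AKK 1 is above both PBS libraries in H1, H2A, H2B and H4; on the right both AKK libraries are lowest in H1, H2A, H2B and H3, and in H4 AKK 1 lies between the PBS libraries.

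The class sums therefore gave another picture than the counts of genes. As log2 ratios of the AKK mean over the PBS mean, they were 0.05 for H1, -0.14 for H2A, 0.45 for H2B, -0.54 for H3 and -0.11 for H4. Without AKK 1 the same ratios were -0.17, -0.67, 0.01, -1.12 and -0.74, and without AKK 2 they were 0.25, 0.24, 0.78, -0.14 and 0.32. Leaving out the 2 members with most reads in each class, a step chosen after seeing the data, gave -1.93 for H1, -0.48 for H2A, -0.62 for H2B, -1.02 for H3 and -0.45 for H4. The sums have no test.

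Per kilobase of the longest annotated transcript, levels of different genes can be set side by side only roughly. Which mRNA form was counted is not known, and the annotated stretch after the stem-loop differs widely between genes. H1f0 stood at 248 CPM per kilobase in AKK and 218 in PBS. Hist1h2bc was at 129 in AKK and 84.1 in PBS, Hist1h1c at 74.7 in AKK and 89.5 in PBS, and Hist1h4i at 23.7 in AKK and 22.6 in PBS. The genes that DESeq2 called were far scarcer than these. On the same scale Hist1h2bj was at 1.16 in AKK and 6.45 in PBS, and Hist1h1a at 0.706 in AKK and 3.94 in PBS. Hist1h3a was at 0.229 in AKK and 2.05 in PBS. The called genes had 6 to 454 reads a library, and their SE holds the spread between the libraries as well as counting error. Genes that were not called also lay at such levels in PBS. Among them were Hist3h2a, at 3.28 in AKK and 2.90 in PBS, and Hist2h3c2, at 3.50 in AKK and 3.42 in PBS.

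Annotated transcript length was compared with the difference among the 61 genes on cluster symbols, leaving out H1f0, H2afy2 and H2al3. Of 46 genes whose longest transcript was under 1000 bases, 28 (60.9%) lay lower in both AKK libraries and none higher, with a median log2 ratio of -0.73. Of 15 genes with a longer transcript, 4 (26.7%) lay lower and 2 higher, with a median of -0.14. Over all genes with 10 or more reads, 24.3% lay lower and 25.7% higher. The lower share of the longer transcripts was thus near that of all genes. Where the transcript ended within 100 bases of the stem-loop the median was -0.73 (19 genes), where it went on for 100 bases or more it was -0.22 (19 genes), and without stem-loop letters it was -0.70 (23 genes). Across the 61 genes the relation was weak (Pearson's r = 0.18, Spearman's rho = 0.23), and the points share the same 4 libraries. Hist1h1d and Hist1h1e, with long annotated transcripts and low AKK values, stand against the tendency of the groups.

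**Figure D4:**
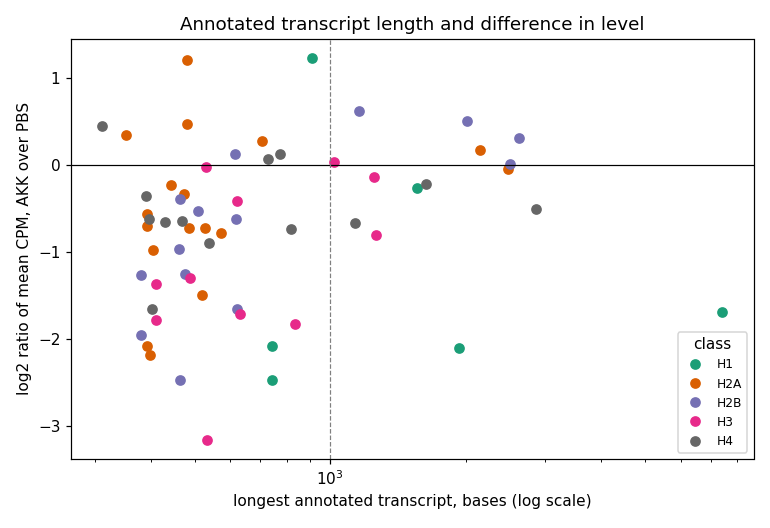
Longest annotated transcript in bases (horizontal axis, log scale) and log2 ratio of the AKK mean over the PBS mean (vertical axis) for the 61 genes on cluster symbols, coloured by class; the dashed line marks 1000 bases. Points at short lengths spread from -3.16 to 1.23, and the 15 points at or right of the line have a median of -0.14.

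Near-identical gene copies limit what single values mean. Of windows of 151 bases, the read length, fewer than 50% were unique to the gene among annotated transcripts in 21 of the 64 genes, and reads from those genes may have been dropped or assigned to a copy. Windows were 100% unique in Hist1h1a, Hist1h1b and Hist1h1d, 80.6% in Hist1h1e, 78.0% in Hist1h2bj, 76.8% in Hist1h3a and 65.4% in Hist1h2bn. They were 41.8% in Hist1h2af, 40.8% in Hist1h2ad, 8.5% in Hist1h2ao, 40.7% in Hist2h3c2, 47.5% in Hist1h3i, 46.9% in Hist1h4k and 14.3% in Hist1h4m, whose values are uncertain, as is that of Hist1h2bq at 8.3%. Reads that mapped to several places were 6.66% and 4.98% in AKK, against 4.20% and 4.72% in PBS.

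Genes of the replication machinery, which are also active in S phase, were counted in the same way, where 26.7% of all 17479 genes tested lay higher and 24.7% lower in both AKK libraries. Of 36 genes of S phase and DNA replication, 29 had a positive log2 fold change and 23 lay higher in both AKK libraries, with 1 lower in both; the list's median fold change was 0.24 on the log2 scale. None passed edgeR, and DESeq2 called 1 of the 36 higher, where it called 2.04% of all genes. This was Gins1, a subunit of the replicative helicase complex. It was at 26.2 and 35.1 CPM in AKK, against 12.7 and 10.8 CPM in PBS, with a log2 fold change of 1.38 ± 0.249 (SE; edgeR adjusted p = 0.182, DESeq2 adjusted p = 0.000612). Of 20 mitosis genes none was called by either tool, 4 lay higher and 4 lower in both AKK libraries, a smaller share each way than over all genes, and the median was 0.12. Birc5, which codes for survivin, was at 84.0 and 62.0 CPM in AKK, against 49.5 and 48.7 CPM in PBS, and the kinetochore gene Cenpf at 84.0 and 80.5 CPM in AKK, against 120 and 110 CPM in PBS.

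Among 20 genes for the synthesis and processing of histone mRNA, 6 lay higher and 6 lower in both AKK libraries, near the 26.7% and 24.7% of all genes. The median over the list was -0.07 (log2). None passed edgeR, and DESeq2 called Ncbp2, a subunit of the nuclear cap-binding complex, at 45.9 and 53.3 CPM in AKK, against 29.8 and 22.2 CPM in PBS (log2 fold change 0.93 ± 0.225 (SE); edgeR adjusted p = 0.206, DESeq2 adjusted p = 0.0380). Slbp and Npat, named after their values were seen because they code for the stem-loop binding protein and the coactivator of histone genes, were not called. Slbp was at 65.9 and 63.1 CPM in AKK, against 54.1 and 52.5 CPM in PBS, and Npat at 30.1 and 55.6 CPM in AKK, against 64.7 and 60.6 CPM in PBS. Of 24 histone chaperone and import genes none was called, 9 lay higher and 4 lower in both AKK libraries, against 26.7% and 24.7% of all genes, and the median was 0.05. Those with the smallest p were Tonsl, at 56.6 and 52.2 CPM in AKK, against 34.5 and 39.3 CPM in PBS (edgeR adjusted p = 0.274), and the H3-H4 chaperone gene Nasp, at 97.3 and 76.1 CPM in AKK, against 63.2 and 51.7 CPM in PBS (edgeR adjusted p = 0.296).

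Replacement histones, which are made outside S phase too, mostly from polyadenylated mRNAs, had a median log2 fold change of 0.34 over 11 genes, of which H1f0 and H2afy2 are also among the 64. A positive value was found in 10, and 6 lay higher in both AKK libraries, with 1 (H3f3b) lower in both, against 26.7% and 24.7% of all genes. H2afv, an H2A.Z gene, was at 69.0 and 59.9 CPM in AKK, against 35.7 and 37.7 CPM in PBS, with a log2 fold change of 0.81 ± 0.183 (SE; edgeR adjusted p = 0.192, DESeq2 adjusted p = 0.0286), and was the one that DESeq2 called. The genes H3f3a, H3f3b, H2afz and H2afx are named after their values were seen, and none was called. H3f3b, the most abundant of the list, was at 855 and 920 CPM in AKK, against 1014 and 1116 CPM in PBS, while H3f3a, which codes for the same protein, was at 390 and 389 CPM in AKK, against 337 and 278 CPM in PBS. H2afz overlapped, at 239 and 249 CPM in AKK, against 210 and 268 CPM in PBS. H2afx, which codes for the H2A variant that is phosphorylated at DNA breaks, was at 157 and 111 CPM in AKK, against 87.0 and 99.4 CPM in PBS.

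Other RNAs that lack a poly(A) tail in at least some of their forms, Malat1 and Neat1 included, were examined beside the histone genes. Among 28 such genes, some of them without a read, 11 were kept for testing (median log2 fold change 0.17, the value of Malat1). Of the 11, 4 lay lower and 2 higher in both AKK libraries, against 24.7% and 26.7% of all genes. At an unadjusted edgeR p under 0.05, 3 were lower and 0 higher, against 8.62% and 6.7% of all genes. Rn7sk, the RNA that holds the elongation factor P-TEFb inactive, was at 0.849 and 0.702 CPM in AKK, against 5.68 and 16.7 CPM in PBS, with a log2 fold change of -3.85 ± 0.624 (SE; edgeR adjusted p = 0.182, DESeq2 adjusted p = 9.42e-09). Its part in the histone values was not tested.

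The makeup of the tumours also differed between libraries. The summed level of 10 hepatocyte markers was 637 and 599 CPM in AKK, against 242 and 586 CPM in PBS, and 9 of the 10 lay higher in both AKK libraries. Apob, the exception, made up most of the PBS sums, and without it, a step chosen after seeing the data, the other 9 summed to 473 and 131 CPM in AKK, against 1.14 and 2.86 CPM in PBS. The hepatocyte marker Fgb was the only one of the 17479 genes tested that passed edgeR. The sums of 6 B and plasma cell markers were 60.3 and 24.7 CPM in AKK, against 5.45 and 5.30 CPM in PBS, and those of 5 Kupffer cell markers 18.2 and 2.38 CPM in AKK, against 0.337 and 0.0210 CPM in PBS. T cell markers summed to 8.81 and 4.76 CPM in AKK, against 2.29 and 4.06 CPM in PBS. Endothelial markers summed to 24.6 and 26.1 CPM in AKK, against 78.3 and 53.8 CPM in PBS, although 1 of the 5, the sinusoidal marker Stab2, was higher, at 2.65 and 0.822 CPM in AKK, against 0.131 and 0.126 CPM in PBS (DESeq2 adjusted p = 0.00214). Macrophage markers summed to 439 and 435 CPM in AKK, against 640 and 499 CPM in PBS, and fibroblast markers to 713 and 1075 CPM in AKK, against 1386 and 452 CPM in PBS. Skeletal muscle markers summed to 2.14 and 2.43 CPM in AKK, against 200 and 5.70 CPM in PBS. Their part in the histone values was not tested. Testis germ cell markers, sought because Hist1h1t is a testis gene, summed to 0.230 and 0.0514 CPM in AKK, against 0.150 and 0.336 CPM in PBS, and none of the 5 was kept for testing.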

How the data were processed

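RNA from liver tumours (4 libraries: 2 AKK, 2 PBS) was sequenced as paired reads of 151 bases. The deposited files hold raw read counts per gene, which STAR 2.5.2 made, per the submitters' processing notes, which also name RSEM 1.2.31; for genome build, annotation and RNA selection, the value is not given in the sources used here. Column 3 (own-strand counts) was used, and summary lines that name no gene (unmapped, 8.97% to 12.3% of reads; outside genes, 11.4% to 13.5%) stayed out of library sizes and tests. Reads on genes numbered 48912489 to 59027227 a library.

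Counts were scaled by TMM, filtered with filterByExpr and tested with edgeR 4.0.16 in R 4.3.3 (legacy glmQLFit and glmQLFTest, group as the only term, prior count 0.125, two-sided), with Benjamini-Hochberg adjustment over 17479 genes at 0.05. DESeq2 1.42.0 and limma 3.58.1 (voom) were alternatives, as were other scalings, filters and the other strand setting, the replicate block and leaving out each library. The edgeR, DESeq2 and voom tests were tested on simulated data; the other settings were not. SE is the log2 fold change divided by the root of the F statistic. The correlation of log2 CPM within a pair was 0.982 in AKK and 0.983 in PBS. P-values set the difference between the groups against the spread between these libraries.

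Named per class were the 3 members with most reads, the largest and smallest fold changes, every member with an unadjusted p under 0.05 and those at the read limit; from each other list, members called by edgeR or DESeq2, else the 2 with the smallest p; cell type markers were given as sums, and 1 marker list is not reported here. The members, lists and rules were chosen with earlier results of these data known. Transcript features came from GENCODE M21, in which all 64 symbols matched (44 with the same versioned ID), and promoters from RefSeq (57 of 64 matched). Gene coordinates in the files' own build are not given.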

Additional observations from a re-analysis of the deposited data

How the results depend on the processing

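No histone gene was called by edgeR in the settings that changed the scaling, the strand, the threshold, the form of the edgeR test or the libraries used, in the filter at 1 CPM or with the replicate block, nor by limma-voom. Without a filter on low counts edgeR called 5 (Hist1h1a, Hist1h1b, Hist1h1e, Hist1h2bj and Hist1h3a), and DESeq2 called 7. The 7 kept a negative fold change in every setting run, leaving out single libraries included. They were chosen as called lower in these same data, with both AKK libraries below both PBS libraries, so this adds no support. The number of all genes called, 1 as reported, was 3 with upper-quartile scaling, 631 without a filter, 878 by DESeq2, 0 by limma-voom, 4 in the edgeR 4 form, 3 at an adjusted p of 0.1 and between 0 and 324 on leaving out 1 library. AKK and PBS libraries share replicate numbers, but deviations of same-numbered libraries did not correlate (r = -0.04 over 17479 genes). With 2 libraries a group this cannot exclude a pairing. With the replicate block 209 genes were called, and Hist1h2be, Hist2h3c2 and Hist1h4i turned to -0.08, -0.14 and -0.065. The causes were not tested.

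Genes lower in both AKK libraries numbered 14 of 31 kept at 1 CPM, against 26.1% of all genes. Genes higher in both numbered 1 without a filter and 1 at 1 CPM, against 20.7% and 26.7% of all genes. On leaving out 1 library, 35 to 48 histone genes of the 58 to 61 kept lay lower in AKK, and 3 to 18 higher. All genes gave 34.5% to 39.4% lower and 37.1% to 42.2% higher on leaving out 1 library. Values near 0 changed sign: Hist1h2be was at -0.003 with DESeq2 size factors and in DESeq2 and at -0.088 in limma-voom; Hist2h3c2 and Hist1h4i were at -0.147 and -0.071 in limma-voom; Hist1h2ac and Hist1h3g were at 0.047 and 0.06 with upper-quartile scaling. On leaving out 1 library the log2 fold change ranged from -0.93 to 0.19 for Hist1h1c, -1.40 to 0.64 for Hist1h2ac, -0.40 to 1.00 for Hist1h2ao, -0.61 to 0.45 for Hist1h2be, -0.95 to 0.38 for Hist1h3d, -0.82 to 0.49 for Hist1h3g, -0.71 to 0.57 for Hist1h4i, -0.45 to 0.54 for Hist1h4j, -0.012 to 1.09 for Hist1h4k, -0.86 to 0.57 for Hist2h3c2 and -0.40 to 0.58 for Hist3h2a. The log2 ratio of class sums ranged from -0.17 to 0.25 for H1, -0.67 to 0.24 for H2A, 0.007 to 0.78 for H2B, -1.12 to -0.14 for H3 and -0.74 to 0.32 for H4. It was -0.39 for H1 without H1f0, and, chosen after seeing the data, -1.93 for H1 and -0.62 for H2B without the 2 members with most reads. A fit without 1 library assumes that the lone library varies like the other group.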
